A study of Mus musculus with 22 samples.

Results

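The genes described are 10 members of the fibroblast growth factor (FGF) system in mouse heart, the ligand genes Fgf1, Fgf2, Fgf9, Fgf10, Fgf16 and Fgf18, the related intracellular factor Fgf12, and the receptor genes Fgfr1, Fgfr2 and Fgfr3. They were picked by gene symbol out of 49671 Ensembl genes in the deposited tables, and all 10 were found there. The list was chosen from earlier results on these same libraries, so calls among the 10 are given as a description, with no p-value, and support nothing beyond the values themselves. RNA came from bulk heart muscle of CD1 mice, an outbred strain, with no other genotype or agent named in the labels. Mice in the nPAB group underwent neonatal pulmonary artery banding on postnatal day 1, a narrowing of the pulmonary artery sized with a 30-gauge needle that raises the pressure load of the right ventricle (RV), and Sham mice underwent a sham operation on the same day. Hearts were taken 7 days after surgery. The left ventricle (LV) and RV of each animal were sequenced separately, which gave RV nPAB and LV nPAB from 6 mice and RV Sham and LV Sham from 5 mice.

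FGFs are secreted signals that bind FGF receptors, which are tyrosine kinases at the cell surface, together with heparan sulfate chains that hold the ligand and receptor in one complex. The receptors pass the signal through the adaptor FRS2 to the RAS and ERK cascade, which switches on its own inhibitors such as the Sprouty proteins and DUSP6. In the developing heart, FGF9 and FGF16 are known to act on muscle cells through FGFR1 and FGFR2 and to support their growth, and FGF10 is known for a role in fetal muscle cell division. FGF1 and FGF2 lack a classical secretion signal and are known for effects on vessels, fibroblasts and muscle cell size. FGF12 belongs to the FGF homologous factors, which stay inside the cell and bind the tails of voltage-gated sodium channels. FGFR3 is best known from the growth plate of bone.

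Values are normalized counts, the reads counted on a gene divided by a size factor of the library. The reads behind each library numbered 7.11 to 11.3 M. The 6 cardiomyocyte markers summed to between 415970 and 635850 normalized counts per library. Myl7, a light chain typical of atrial muscle, was at 72.0 to 6143 normalized counts over the 22 libraries, so its amount was unequal. The 5 atrial markers, given below with Fgf12, did not all go the same way. Whether Myl7 came from atrial tissue was not tested. Sex was read from Xist and Ddx3y, and every group held libraries of both sexes. For 2 nPAB mice, numbers 6 and 7, the sex differed between the RV and the LV library, while the other 9 mice matched. In mouse 6 the RV read as female and the LV as male, and in mouse 7 the reverse. Values that join the ventricles of a mouse therefore rest on doubtful pairs for those animals. The labels name separate mice but no litters, and the tests measure the spread between these animals. In a bulk sample, fewer cells of a type and less RNA per cell cannot be told apart.

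The sequences before the start sites of Fgf9 and Fgfr3 are shown because they had the largest changes that passed the test in both ventricles. RefSeq promoter entries on GRCm38.p6 were matched for 7 of the 10 members. The Fgf9 stretch lies at chr14:58072436-58072685 on the plus strand, the 250 bases before the RefSeq start, inside an intron of a longer annotated Fgf9 transcript. The Fgfr3 stretch lies at chr5:33721474-33721673 on the plus strand, 200 bases that end where the first annotated Fgfr3 exon begins. Capitals mark the motif matches on either strand.
Fgf9: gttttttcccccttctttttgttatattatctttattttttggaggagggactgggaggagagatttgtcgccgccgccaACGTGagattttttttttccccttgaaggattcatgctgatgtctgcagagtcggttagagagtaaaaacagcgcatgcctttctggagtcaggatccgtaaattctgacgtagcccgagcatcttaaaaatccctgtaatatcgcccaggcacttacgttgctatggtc
Fgfr3: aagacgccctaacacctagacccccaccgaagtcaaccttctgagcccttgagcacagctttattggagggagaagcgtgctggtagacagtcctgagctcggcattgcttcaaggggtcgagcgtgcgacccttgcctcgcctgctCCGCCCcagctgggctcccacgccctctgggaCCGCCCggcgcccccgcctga

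Motifs were searched on both strands in the 250 bases before each start. They were the GC box GGGCGG, the TATA box TATAAA, the TEAD motif GGAATG, the AP-1 motif TGANTCA and the clock E box CACGTG. The hypoxia response core was searched in its form ACGTG, which also lies inside CACGTG. The MEF2 motif was CTA and TAG with 4 free bases between them. The other form of the hypoxia core, GCGTG, was not searched, and it occurs unmarked in the printed Fgfr3 stretch. Fgf9 held 1 match, the core ACGTG, which begins 170 bases before the start and occurs in 16.6% of 32851 promoter windows of that length. Fgfr3 held 3 GC boxes, read as CCGCCC on the printed strand, at 103, 71 and 31 bases before its first RefSeq start. The last of these lies in annotated exon sequence and is not printed. The second RefSeq start of Fgfr3 had 2 overlapping GC boxes before it. A GC box was present in 32.7% of all windows. The other motifs had no match before Fgf9 or Fgfr3, and they occur in 12.4% (TATA box), 12.6% (TEAD), 6.75% (AP-1), 6.02% (E box) and 3.20% (MEF2) of all windows. The window of Fgf9 was 44.8% G or C and that of Fgfr3 66.8%, against a median of 52.4% over all windows. These matches describe the letters and no binding was measured.

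To compare genes, levels were expressed per exon length as RPKM, reads scaled to library size and to kilobases of exon, computed from the recovered whole reads. Fgf1 had the highest RPKM in all 4 groups, with 17.6 ± 5.12 (SD, n = 5) in RV Sham and 14.3 ± 5.13 (n = 5) in LV Sham. Fgf16 came second, with 13.4 ± 4.72 in RV Sham and 9.62 ± 1.41 in LV Sham, and its range overlapped that of Fgf1 in every group. In RV Sham, Fgf9 (4.77 ± 0.581), Fgf18 (4.20 ± 1.90) and Fgfr1 (3.72 ± 0.522) followed, each overlapping the next. Fgf2 was at 2.21 ± 0.554 RPKM in RV Sham and overlapped Fgfr1. The low members in RV Sham were Fgf12 (0.526 ± 0.408), Fgfr3 (0.498 ± 0.272) and Fgfr2 (0.311 ± 0.168), whose ranges overlapped one another from one to the next, and Fgf10 (0.0744 ± 0.0575) was lowest. Fgfr1 was thus the receptor with the highest level per length, and its range stood clear of Fgfr2 and Fgfr3 in all 4 groups. In RV nPAB the order changed in the middle, with Fgfr3 at 1.82 ± 0.603 RPKM (n = 6) above Fgf9 at 1.39 ± 0.419, although these ranges overlapped.

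**Figure D1:**
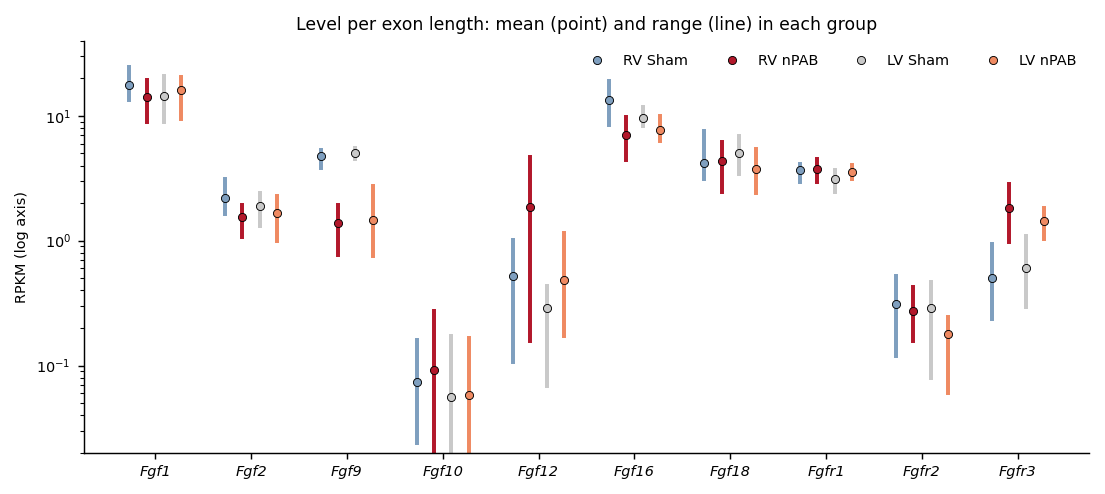
Level of each member per exon length (RPKM, log axis) in RV Sham, RV nPAB, LV Sham and LV nPAB, as the group mean (point) and the range over libraries (line), with ranges that reach 0 drawn to the lower edge. Fgf1 and Fgf16 lie at the top and Fgf10 at the bottom, and the nPAB ranges of Fgf9 lie below its Sham ranges while those of Fgfr3 lie mostly above them.

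The first question was which members differed between banded and sham-operated mice in the RV, whose outlet the band narrows. Fgfr3 was about 4-fold higher in RV nPAB, Fgf9 was more than 3-fold lower, and Fgf16 was lower by a smaller factor. With limma on log2 of the normalized count plus 1, with a minimum mean of 10 per gene and a threshold of 0.05 on the Benjamini-Hochberg adjusted p, 9 of the 10 members were tested, and Fgf10 was below the minimum. Fgfr3 rose, Fgf9 and Fgf16 fell, and the other 6 did not pass. Over the whole RV table, 22.0% of 13660 genes were called, 11.1% higher and 10.8% lower in nPAB. The libraries of nPAB and Sham did not overlap for 2 of the 9 members, Fgf9 and Fgfr3, against 12.9% of all genes. In the LV, Fgfr3 rose and Fgf9 fell, and the other 7 tested members did not pass, in a table where 9.31% of 13528 genes were called, 4.76% higher and 4.55% lower. The same 2 members had no overlap in the LV, against 6.53% of all genes. The median log2 fold change of the 9 members was 0.00 in the RV and -0.15 in the LV, beside 0.00 and -0.01 over all genes tested. Since the members were chosen with these contrasts known, nothing is read from the counts.

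**Figure D2:**
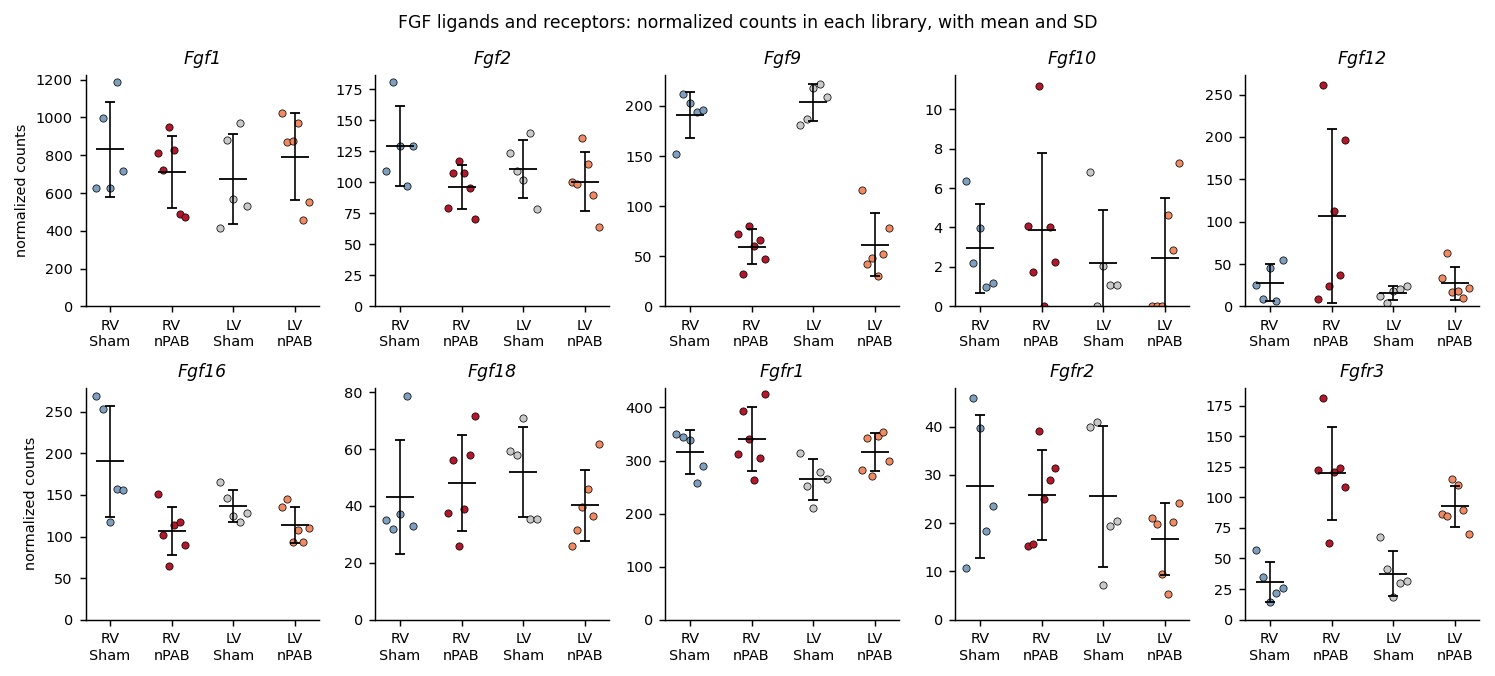
Normalized counts of each member in every library of RV Sham, RV nPAB, LV Sham and LV nPAB (points; n = 5 Sham and 6 nPAB mice), with the group mean and SD (black). The nPAB points of Fgf9 lie below all Sham points and those of Fgfr3 above all Sham points of the same ventricle, while the groups of the other members overlap.

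Fgf9 encodes a secreted ligand made mainly by the epicardium and endocardium of the developing heart. Its gene (ENSMUSG00000021974) lies at chr14:58070547-58112720 on the plus strand of mm10. The 5 RV Sham libraries, mice 9 to 13 in order, held 152, 212, 203, 194 and 196 normalized counts, and the 6 RV nPAB libraries held 32.1 to 80.0 with a median of 63.1. All RV nPAB libraries were below the lowest RV Sham library. The 5 LV Sham libraries held 181, 187, 218, 222 and 209 normalized counts, and the 6 LV nPAB libraries held 30.7 to 116 with a median of 50.1. The highest LV nPAB library, that of mouse 5, was still below every LV Sham library. The log2 fold change was -1.72 ± 0.21 (SE), or 3.28-fold lower, in the RV and -1.84 ± 0.26, or 3.59-fold lower, in the LV. The nPAB group means were close, 59.6 ± 17.5 (SD, n = 6) in the RV and 61.4 ± 31.3 in the LV, each on the scale of its own table. Single mice differed more, with log2 RV minus log2 LV from -0.73 to 0.95 in nPAB and from -0.25 to 0.18 in Sham. The summed level of the 7 epicardial markers was 817 to 956 in RV Sham and 739 to 1024 in RV nPAB, and that of the 4 endocardial markers was 704 to 826 and 556 to 975. In the LV the epicardial sum was 634 to 968 in Sham and 602 to 843 in nPAB, and the endocardial sum 441 to 668 and 507 to 636. All of these ranges overlapped, none of the markers was at 0 in all libraries, and 1 marker of these lists passed the test, the epicardial Aldh1a2, which fell in the RV. The median log2 fold change of the 6 tested epicardial markers was 0.49 in the RV and 0.64 in the LV. That of the 4 endocardial markers was 0.01 and -0.05. The part of either cell type in the Fgf9 values was not tested.

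Fgf16 encodes a ligand of the FGF9 subfamily that heart muscle cells express around birth. Its gene (ENSMUSG00000031230) lies at chrX:105764279-105774939 on the plus strand. The RV Sham libraries held 269, 253, 117, 157 and 156 normalized counts, and the RV nPAB libraries held 65.1 to 151 with a median of 108. Mice 9 and 10 were high among RV Sham, and the other RV Sham mice came within or close to the nPAB range, so the groups overlapped. The log2 fold change was -0.81 ± 0.23 in the RV, or 1.75-fold lower. It was -0.67 without Sham mouse 9, -0.69 without Sham mouse 10 and -0.64 without nPAB mice 6 and 7, and in each of these settings Fgf16 did not pass. In the LV, Sham libraries held 166, 146, 125, 117 and 128 normalized counts and nPAB libraries 93.2 to 145 with a median of 109, a log2 fold change of -0.26 ± 0.17 that did not pass. The RV call thus depended on each of 2 Sham libraries.

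Fgf1 encodes a ligand that can activate every FGF receptor, and Fgf2 the basic FGF found in many adult tissues. For Fgf1 (ENSMUSG00000036585), the RV Sham libraries held 629, 996, 628, 1189 and 717 normalized counts and the RV nPAB libraries 472 to 947 with a median of 768. LV Sham libraries of Fgf1 held 416, 883, 570, 971 and 534, and the LV nPAB libraries 457 to 1024 with a median of 873. The groups overlapped widely, and in both ventricles the banded mice 10 and 11 held the lowest nPAB values. The log2 fold changes of Fgf1 were -0.22 ± 0.23 in the RV and 0.24 ± 0.28 in the LV, and neither passed. For Fgf2 (ENSMUSG00000037225, chr3:37348346-37410108, plus strand), the RV Sham libraries held 109, 181, 129, 97.3 and 129 normalized counts and the RV nPAB libraries 70.7 to 117 with a median of 101. The LV Sham libraries of Fgf2 held 124, 109, 102, 140 and 78.6, and the LV nPAB libraries 64.1 to 135 with a median of 99.6. Its log2 fold changes were -0.41 ± 0.19 and -0.15 ± 0.20, and neither passed. Of the Fgf2 exon bases, 640 (9.44%) are shared with Nudt6 on the opposite strand, whose group means were 6.74 to 9.10 normalized counts.

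Fgf18 encodes a ligand known for bone and lung growth, and its gene (ENSMUSG00000057967) lies at chr11:33117430-33147400 on the minus strand. The RV Sham libraries held 35.0, 31.8, 37.3, 78.8 and 32.9 normalized counts, and the RV nPAB libraries 26.1 to 71.8 with a median of 47.6. Mouse 12 stood above the other RV Sham mice. The LV Sham libraries held 59.4, 58.0, 71.0, 35.5 and 35.5, and the LV nPAB libraries 26.1 to 61.7 with a median of 38.1. The log2 fold changes were 0.17 ± 0.30 in the RV and -0.36 ± 0.28 in the LV, and neither passed. Fgf10 (ENSMUSG00000021732, chr13:118669791-118792115, plus strand) encodes a ligand known for limb and lung budding. It was at 0.973 to 6.37 normalized counts in RV Sham, 0 to 11.2 in RV nPAB, 0 to 6.82 in LV Sham and 0 to 7.26 in LV nPAB. At most 12 reads were counted on Fgf10 in any library. It was under the minimum for the test, and a small difference between groups cannot be judged from so few reads.

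Fgf12 (ENSMUSG00000022523, chr16:28160098-28753068, minus strand) had the widest spread of the tested members, with a residual SD of 1.64 on the log2 scale in the RV. The RV Sham libraries held 25.5, 8.77, 45.2, 5.84 and 55.2 normalized counts, and the RV nPAB libraries of mice 5, 6, 7, 8, 10 and 11 held 9.16, 261, 24.2, 113, 37.0 and 196. Mice 6, 8 and 11 stood above every Sham library, and the other banded mice lay inside the Sham range. In LV Sham, Fgf12 was at 11.7, 3.62, 18.3, 20.4 and 23.7, and the LV nPAB libraries 9.61 to 63.1 with a median of 19.7. The log2 fold changes were 1.53 ± 0.94 in the RV and 0.73 ± 0.49 in the LV, and neither passed. Leaving out 1 mouse at a time moved the RV value between 1.12 and 2.05. The RV nPAB libraries of mice 6, 8 and 11 were also the highest of all 22 in the atrial marker Myl7, with 6143, 2961 and 4082 normalized counts, and the next highest library, RV Sham of mouse 11, was at 1775. The summed level of the 5 atrial markers was 189 to 2520 in RV Sham and 743 to 9819 in RV nPAB, and none of the 5 passed the test in the RV. The RV means of Myl7, Myl4, Sln and Bmp10 were higher in nPAB, while that of Stard10 was lower, at 22.6 against 38.4 in Sham. Bmp10 was at 0 in RV nPAB of mouse 8 and at 73.5 in RV nPAB of mouse 7. In the LV the sum of the markers was 501 to 1485 in Sham and 372 to 2093 in nPAB. None of the 5 markers was at 0 in all RV libraries, and the part of atrial tissue in the Fgf12 values was not tested. Among RV Sham, mice 10 and 12 were lowest in both Fgf12 and Myl7. In the LV, nPAB of mouse 6 was highest in both genes. LV Sham of mouse 10 was the lowest LV library in Fgf12, at 3.62, with Myl7 at 836.

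**Figure D3:**
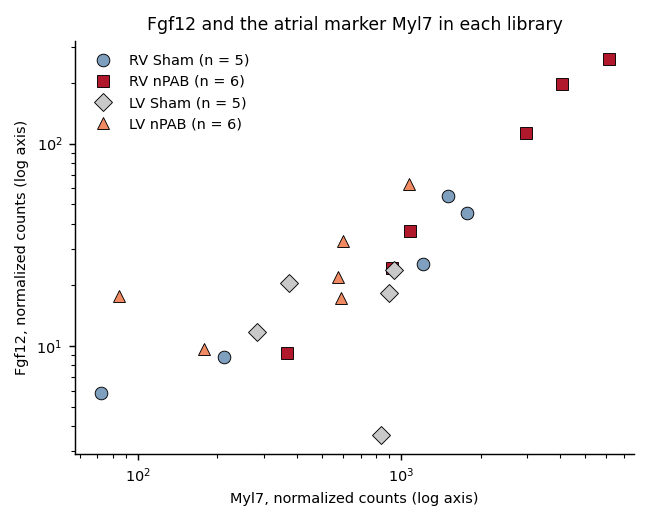
Fgf12 against the atrial muscle marker Myl7 in each of the 22 libraries, both in normalized counts on log axes, with symbols for the 4 groups. The RV nPAB libraries of mice 6, 8 and 11 lie at the upper right in both genes, and the libraries of LV Sham and LV nPAB lie at 63.1 or below in Fgf12.

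Fgfr3 encodes the receptor with the largest rise. Its gene (ENSMUSG00000054252) lies at chr5:33721674-33737068 on the plus strand. The RV Sham libraries held 57.3, 35.1, 14.3, 21.4 and 25.8 normalized counts, and the RV nPAB libraries 62.4 to 181 with a median of 121. The LV Sham libraries held 67.2, 41.1, 18.3, 30.1 and 31.2, and the LV nPAB libraries 70.1 to 115 with a median of 87.9. In both ventricles every nPAB library was above every Sham library, by a small margin at the edges. Mouse 9 was highest and mouse 11 lowest among Sham in both ventricles, and the 5 Sham mice fell in the same order in the RV and the LV. The log2 fold change was 2.01 ± 0.31 in the RV, or 4.03-fold higher, and 1.38 ± 0.27 in the LV, or 2.61-fold higher. On the per-length scale the LV ranges of Fgfr3 overlapped, 0.296 to 1.10 RPKM in Sham and 1.03 to 1.83 RPKM in nPAB. In the LV the lack of overlap thus held for the normalized counts and depended on the scaling. Of the Fgfr3 exon bases, 998 (13.94%) are shared with an unnamed transcript on the opposite strand, G630022F23Rik, whose group means were 0 to 0.374 normalized counts.

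Fgfr1 and Fgfr2 encode the receptors best known from heart muscle development. For Fgfr1 (ENSMUSG00000031565, chr8:25513654-25575718, plus strand), the RV Sham libraries held 350, 345, 339, 257 and 290 normalized counts and the RV nPAB libraries 263 to 426 with a median of 327. In LV Sham, Fgfr1 was at 315, 252, 210, 279 and 266, and the LV nPAB libraries 271 to 354 with a median of 321. The groups overlapped in both ventricles. The log2 fold changes of Fgfr1 were 0.10 ± 0.13 in the RV and 0.26 ± 0.12 in the LV, the smallest SEs among the members, and neither passed. For Fgfr2 (ENSMUSG00000030849, chr7:130162451-133123350, minus strand), the RV Sham libraries held 10.6, 46.0, 39.7, 18.5 and 23.5 and the RV nPAB libraries 15.3 to 39.1 with a median of 27.0. In LV Sham, Fgfr2 was at 39.9, 41.1, 7.11, 19.4 and 20.5 and the LV nPAB libraries 5.38 to 24.2 with a median of 20.1. The log2 fold changes of Fgfr2 were 0.00 ± 0.38 and -0.51 ± 0.48, and its sign in the RV changed with the mouse left out. The annotated span of Fgfr2 shares 314 exon bases (3.04%) with Ctbp2 on the same strand, whose group means were 210 to 219 normalized counts against 16.7 to 27.7 for Fgfr2, so the Fgfr2 counts are uncertain. Summed fibroblast markers, which belong to a cell type known to express Fgfr1, were 53836 to 71114 in RV Sham and 35027 to 54499 in RV nPAB, and 2 of the 6 (Col3a1 and Pdgfra) fell in the RV. In the LV the sums were 42575 to 51436 in Sham and 34945 to 53654 in nPAB, and none of the 6 passed. None of these markers was at 0 in all libraries, and their part in the Fgfr1 value was not tested.

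**Figure D4:**
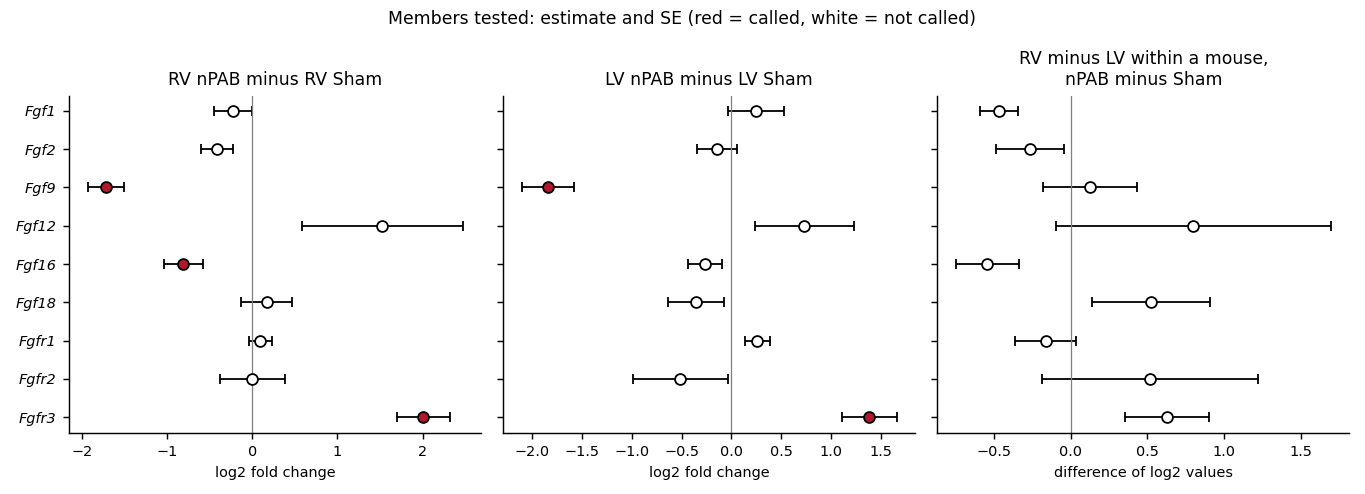
Log2 fold change of nPAB against Sham in the RV and the LV, and the within-mouse RV minus LV difference in nPAB minus that in Sham, for the 9 members tested (point and SE; red for called, white for not called). Fgf9 lies near -1.7 to -1.8 in both ventricles and Fgfr3 near 2.0 and 1.4, and no point is red in the right panel.

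The second question was whether the change differed between the ventricles, taken as log2 RV minus log2 LV of each mouse and compared between nPAB and Sham. With limma, 0 of the 9 members passed and 0.00748% of 13364 genes were called, a single gene. At an unadjusted p under 0.05 there were 3 members (Fgf1, Fgf16 and Fgfr3), against 11.0% of all genes. On recovered reads edgeR called 158 genes (1.18%) and DESeq2 called 251 (1.88%), and of the members each called 1, Fgf1. The RV minus LV values of Fgf1 in Sham mice 9 to 13 were 0.59, 0.17, 0.14, 0.29 and 0.42 on the log2 scale, and those of the nPAB mice were -0.34 to 0.11 with a median of -0.23. Fgf1 was the 1 member whose mice did not overlap between the groups, against 1.80% of all genes. The difference for Fgf1 was -0.47 ± 0.12 (SE). The RV minus LV values of Fgfr3 in Sham mice were -0.23, -0.22, -0.33, -0.48 and -0.26, and those of nPAB mice 5, 6, 7, 8, 10 and 11 were 0.50, 1.09, -0.87, 0.13, 0.47 and 0.63. Of the nPAB mice, mouse 7 alone was below 0. Mice 6 and 7, the 2 whose libraries differed in sex, held the highest and the lowest of these nPAB values. RV nPAB of mouse 7, at 62.4 normalized counts of Fgfr3, was below every LV nPAB library (70.1 to 115), each on the scale of its own table. The differences were 0.63 ± 0.28 for Fgfr3, -0.54 ± 0.20 for Fgf16 and 0.13 ± 0.31 for Fgf9. The other members gave -0.27 ± 0.22 (Fgf2), 0.80 ± 0.90 (Fgf12), 0.53 ± 0.38 (Fgf18), -0.16 ± 0.20 (Fgfr1) and 0.52 ± 0.70 (Fgfr2). Leaving out 1 mouse at a time moved these to between -0.45 and -0.14 (Fgf2), 0.24 and 1.42 (Fgf12), 0.37 and 0.88 (Fgf18), -0.26 and -0.06 (Fgfr1), and 0.02 and 1.06 (Fgfr2), and the value of Fgf9 to between -0.06 and 0.28.

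Between the ventricles of the Sham mice, reads scaled to library size (RPM) gave a description on a single scale. Fgf1 was higher in the RV than in the LV in 5 of 5 mice, at 96.1 ± 28.0 (SD, n = 5) against 78.3 ± 28.0. Fgf16 was higher in the RV in 4 of 5 mice, at 22.1 ± 7.77 against 15.8 ± 2.33. Fgfr3 was higher in the RV in 0 of 5 mice, at 3.57 ± 1.94 against 4.36 ± 2.16. Fgf9 was nearly level, at 22.2 ± 2.70 in the RV and 23.6 ± 2.07 in the LV.

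The genes whose pattern over the 22 libraries was most like that of a member were found by the root-mean-square difference of log2 values, each taken relative to the Sham mean of the same ventricle. For Fgfr3 these were Bnip3 (difference 0.43), Bhlhe40 (0.46) and Egln3 (0.48), against a median of 1.39 over 10223 genes. Bnip3 encodes a mitochondrial protein, Bhlhe40 a transcriptional repressor and Egln3 a prolyl hydroxylase. Their log2 differences between nPAB and Sham were 2.03, 1.69 and 1.67 in the RV and 1.14, 1.26 and 1.08 in the LV. For Fgf9 the nearest were Sox4 (0.37), Txnip (0.42) and Fbp2 (0.45), against a median of 1.40. Sox4 encodes a transcription factor, Txnip a thioredoxin-binding protein and Fbp2 the muscle fructose bisphosphatase. Their log2 differences were -1.52, -1.83 and -2.22 in the RV and -1.36, -1.60 and -1.72 in the LV. Changes close to those of Fgfr3 and Fgf9 follow from how these genes were picked and are no further result.

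The FGF genes outside the 10 members, ligands and homologous factors together, numbered 15. Of these, 7 (Fgf3, Fgf4, Fgf8, Fgf15, Fgf17, Fgf20 and Fgf21) were listed at 0 in all 22 libraries. Another 4 were under the minimum, and 4 were tested. For this and the following lists, the counts stand beside a whole table in which 11.1% of genes rose and 10.8% fell in the RV and 4.76% rose and 4.55% fell in the LV, so more calls in the RV than in the LV are not particular to a list. The lists were chosen with earlier results known, and their named genes are mainly those called with the smallest p in these same contrasts. Their adjusted p-values, from limma, are therefore a description and give no further support. Of the 4 tested, Fgf6 is a secreted ligand, and Fgf11, Fgf13 and Fgf14 are FGF homologous factors. In the RV Fgf6 rose and Fgf13 fell, and in the LV Fgf6 rose and 0 fell. The median log2 fold changes of the 4 genes were -0.24 and 0.05. Fgf6, a ligand known from skeletal muscle, was at 0, 8.77, 0.794, 0 and 0 normalized counts in RV Sham and at 9.31 to 87.0 with a median of 19.3 in RV nPAB. In LV Sham it was at 1.95, 0, 1.01, 2.15 and 3.23, and in LV nPAB at 7.03 to 57.3 with a median of 22.8. Fgf6 reached the minimum mean only through the nPAB group, with RV means of 32.6 in nPAB and 1.91 in Sham and LV means of 25.6 and 1.67, so its call is given as a description and supports nothing. Its log2 fold change was 3.82 ± 0.71 (SE) in the RV and 3.10 ± 0.63 in the LV, on a scale that depends on the added 1 at such low values. Fgf13, the FGF homologous factor most abundant in ventricular muscle of mice, was at 855, 761, 710, 905 and 856 normalized counts in RV Sham and 273 to 609 with a median of 470 in RV nPAB. It fell in the RV (log2 fold change -0.86 ± 0.15, adjusted p = 0.00076) and was at -0.19 ± 0.12 (adjusted p = 0.37) in the LV. The difference of these changes was -0.67 ± 0.17 (adjusted p = 0.19), which did not pass. Per exon length, Fgf13 was at 23.5 ± 2.03 RPKM in RV Sham, where Fgf12 was at 0.526 ± 0.408.

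Of 9 other receptor, co-receptor and binding protein genes, 5 were tested, 1 fell in each ventricle and none rose, with median log2 fold changes of -0.44 in the RV and 0.10 in the LV. Fgfr4 was at 1.17 normalized counts or less in every library, and the Klotho co-receptor genes Kl and Klb were under the minimum. Flrt2, which encodes a membrane protein that binds FGF receptors, fell in the RV (log2 fold change -0.80 ± 0.14, adjusted p = 0.00062) and in the LV (-0.53 ± 0.14, adjusted p = 0.020). Without Sham mouse 9 or Sham mouse 11, Flrt2 in the LV was at -0.51 and -0.47 and did not pass.

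Heparan sulfate carriers and enzymes numbered 26, of which 24 were tested in the RV, where 4 rose and 1 fell, and 23 in the LV, where 4 rose and 0 fell. Their median log2 fold change was 0.05 in the RV and 0.15 in the LV, beside 0.00 and -0.01 over all genes. Gpc1, a membrane-anchored heparan sulfate carrier, rose in the RV (0.62 ± 0.13, adjusted p = 0.0025) and the LV (0.75 ± 0.15, adjusted p = 0.0038). Sulf2, which trims sulfate groups off heparan sulfate outside the cell, rose in the RV (0.47 ± 0.09, adjusted p = 0.0015) and the LV (0.42 ± 0.09, adjusted p = 0.0079). Sdc3, a syndecan, rose in the RV (0.55 ± 0.13, adjusted p = 0.0046) and was at 0.34 ± 0.15 (adjusted p = 0.15) in the LV. Ndst3, a sulfate-adding enzyme, fell in the RV (-1.58 ± 0.37, adjusted p = 0.0046) from 40.7 ± 15.4 to 13.6 ± 6.38 normalized counts and was at -0.95 ± 0.57 (adjusted p = 0.32) in the LV.

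In the signalling chain below the receptors, 4 of 19 genes tested rose and 2 fell in the RV, while 0 of 20 rose and 1 fell in the LV. The median log2 fold change of this chain was -0.09 in the RV and 0.02 in the LV. Map2k1, which encodes the kinase MEK1, rose in the RV from 513 ± 33.4 to 828 ± 73.8 normalized counts (log2 fold change 0.69 ± 0.09, adjusted p = 2.1e-05) and was at 0.30 ± 0.09 (adjusted p = 0.053) in the LV. Hras, which encodes a RAS protein, rose in the RV (0.40 ± 0.10, adjusted p = 0.0086). Gab1, an adaptor that joins FRS2 to further signals, fell in the RV (-0.57 ± 0.09, adjusted p = 0.00029) and in the LV (-0.46 ± 0.09, adjusted p = 0.0040).

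Among feedback inhibitors and targets, 3 of 15 genes tested rose and 1 fell in the RV, and 0 of 14 rose and 1 fell in the LV, with medians of 0.13 and 0.11 on the log2 scale. Dusp6, the ERK phosphatase that FGF signalling switches on, was at 186, 206, 199, 218 and 217 normalized counts in RV Sham and at 237 to 333 with a median of 320 in RV nPAB. It rose in the RV (0.58 ± 0.12, adjusted p = 0.0015) and was at 0.18 ± 0.15 (adjusted p = 0.51) in the LV. Etv1, a transcription factor downstream of FGF receptors, fell in the RV (-0.73 ± 0.12, adjusted p = 0.00041) from 397 ± 36.1 to 242 ± 43.8 normalized counts and was at 0.21 ± 0.16 (adjusted p = 0.45) in the LV. The difference between ventricles for Etv1 was -0.93 ± 0.21 (adjusted p = 0.15) and for Dusp6 0.40 ± 0.18 (adjusted p = 0.44), and neither passed. Dusp4 rose in the RV (1.14 ± 0.35, adjusted p = 0.026) and did not pass without any 1 of nPAB mice 6 and 11 and Sham mice 9, 10 and 12, where it was at 0.93 to 1.09. Spred1, an inhibitor of RAS signalling, fell in the LV (-0.31 ± 0.09, adjusted p = 0.043), a call that was lost without any 1 of nPAB mice 7 and 8 or of the 5 Sham mice, at -0.33 to -0.25.

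Among the channel partners of the FGF homologous factors, 2 of 9 genes tested rose and 2 fell in the RV, and 0 of 9 rose and 1 fell in the LV, with medians of -0.02 and -0.25. Scn3b, which encodes a sodium channel beta subunit, rose in the RV (1.62 ± 0.48, adjusted p = 0.020). Scn10a, a sodium channel alpha subunit, was called lower in the RV (-2.37 ± 0.48), from 41.7 ± 6.00 to 9.79 ± 8.41 normalized counts, but it passed the minimum mean only through the Sham group, so this too is a description. Cacna1c, the main calcium channel of heart muscle, fell in the RV (-0.61 ± 0.12, adjusted p = 0.0012) and in the LV (-0.36 ± 0.10, adjusted p = 0.026). The LV call of Cacna1c was lost without any 1 of nPAB mice 6 and 7 and Sham mice 9, 10, 11 and 12, at -0.37 to -0.31. The RV call of Scn3b was lost without any 1 of nPAB mouse 6 and Sham mice 10, 11 and 13, at 1.35 to 1.45. RV nPAB of mouse 6, the highest library in Scn3b at 82.3, was also the highest in Myl7 and Fgf12, and the part of atrial tissue in these channel values was not tested.

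**Figure D5:**
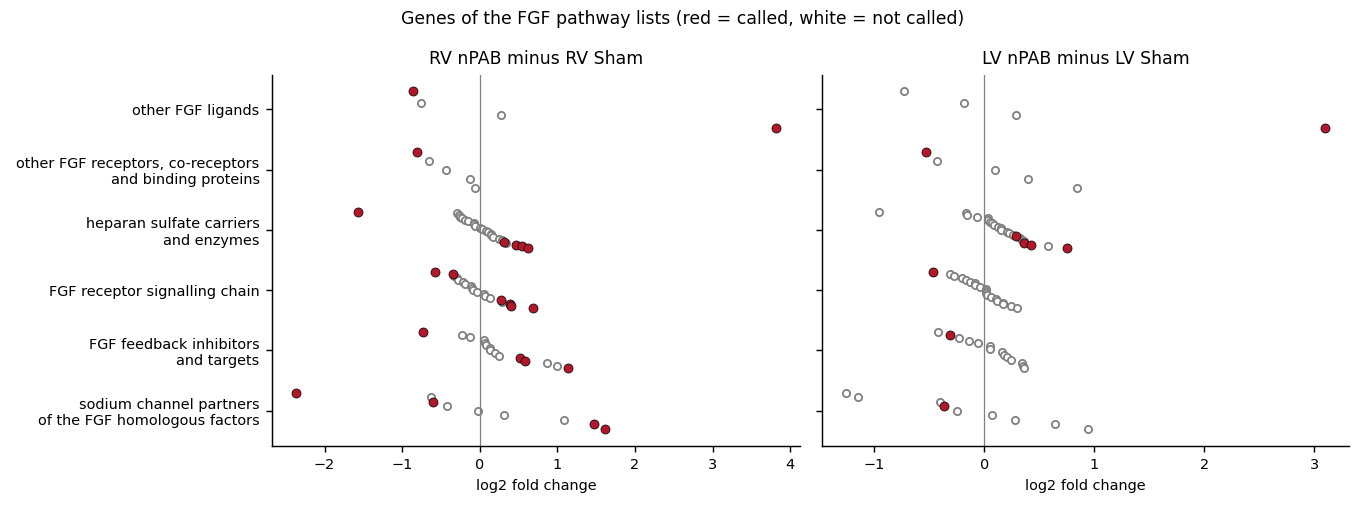
Log2 fold change of nPAB against Sham for each tested gene of 6 lists around the FGF receptors, in the RV (left) and the LV (right), red for genes that passed and white for those that did not. Fgf6 lies far to the right in both panels, Scn10a is the lowest red point in the RV, and more points are red in the RV than in the LV.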

How the data were processed

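Per the submitters' processing notes, the mm10 build was used with featureCounts, cutadapt and DESeq2, no version of which is stated. The aligner, and whether strand was used, is not given in the sources used here. Per the labels, the authors deposited 1 table per ventricle of gene counts scaled by DESeq2 size factors, a signal with no values below 0. All 22 columns were used, and no other column of sample values was left over. Each header line has 2 empty cells, so names were read in order with these skipped and matched to samples through the labels. Values were whole multiples of 1 read within 0.001, and the recovered reads gave the depth (7.11 to 11.3 M per library), the RPM, the RPKM (over all exon bases in GENCODE vM21) and the counts for edgeR 4.0.16 and DESeq2 1.42.0, run as alternatives only. Because each table had its own normalization, tests stayed inside a table or used the RV minus LV difference of a mouse.

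The main test was limma 3.58.1 in R 4.3.3 (eBayes with trend and robust options) applied to log2(deposited value + 1) where the gene's mean reached 10. Tests were two-sided, and p-values were adjusted over all genes by Benjamini-Hochberg with 0.05 as the threshold. The added 1 understates changes of low genes. The test was also run on simulated counts with known changes. Those counts had the same dispersion setting for every gene and no effect shared by the ventricles of a mouse. They therefore do not show how the test performs on genes of wide spread or on real pairs. The members and lists were chosen with earlier results of these data known. The genes named are all 10 members, up to 4 called genes with the smallest p of each pathway list (other list genes are named from their values as examples), and the 3 genes nearest in pattern to Fgfr3 and to Fgf9, the members with the largest changes in the RV and the LV, from those averaging 50 or more in both tables, provisional symbols passed over. Results for a few genes within this rule are left out here.

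LV and RV libraries were paired by the mouse number in their titles. Their deviations from the group means had correlations of 0.133 to 0.384 in the 9 mice of matching sex, 0.171 in nPAB mouse 6 and 0.056 in nPAB mouse 7, over 12878 genes off the X and Y chromosomes. Within each group, all pairs of libraries differed by more than sampling noise (chi-square per degree of freedom 7.47 or higher). Alternatives changed the pseudocount, the filter, the variance model, the scaling, a sex term, the count tool and the block, and left out mice. Figures were drawn with matplotlib 3.10.9.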

Additional observations from a re-analysis of the deposited data

Results flagged for a closer look

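In 108 groups of 5 or 6 libraries (27 genes), 10 held a library whose gap to its nearest neighbour was a large share of the group's range. Chance flags about 1 in 20 groups. Of the members, Fgf9 was at 152 normalized counts in RV Sham of mouse 9, against 194 to 212 in the other RV Sham mice, and Fgf18 was at 78.8 in RV Sham of mouse 12, against 31.8 to 37.3. RV nPAB of mouse 6 was apart in 3 genes, at 273 for Fgf13 (others 455 to 609), 468 for Sdc3 (others 301 to 348) and 82.3 for Scn3b (others 23.1 to 33.7). That library was also the highest in Fgf12, in Fgfr3 and in the atrial marker Myl7, and the part of atrial tissue in these values was not tested. RV nPAB of mouse 8 was at 237 for Dusp6, against 313 to 333. Fgf6 was at 8.77 in RV Sham of mouse 10, against 0 to 0.794 in the others. Gpc1 was at 153 in RV Sham of mouse 13 (others 223 to 258) and at 246 in LV Sham of mouse 11 (others 187 to 196). Sdc3 was at 332 in LV Sham of mouse 10 (others 193 to 221).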

How the results depend on the processing

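Of 1733 values computed under alternatives, 1636 kept their call or, for counts, stayed within a wide margin. Beyond that, 57 counts moved, 34 calls were lost and 6 were gained. Counts of 841 and 1680 LV genes called, against 1260, were inside that margin. So was a fall from 3 to 2 members called in the RV, where Fgf16 was lost. Of 30 called fold changes 0 changed sign, and of 35 that were not called 3 did: Fgfr2 in the RV (11 of 20 alternatives), Dusp4 in the LV (8 of 20) and the RV minus LV difference of Fgf9 (2 of 22). Fgf9 and Fgfr3 passed in both ventricles under all 21 alternatives of each comparison, among them edgeR and DESeq2, and Fgf16 passed in the RV under 18 of 21. Leaving out 1 mouse at a time, Fgf9 ranged over -1.81 to -1.55 in the RV and -2.05 to -1.68 in the LV, and Fgfr3 over 1.78 to 2.27 and 1.16 to 1.62. The count of LV genes called was 1260, and it was 739 without the trend and robust options and 668 without nPAB mice 6 and 7. With 1 mouse left out at a time it was 841 to 1290, and with DESeq2 it was 1680. The RV minus LV comparison called 1 gene, against 0 with a pseudocount of 0.5 or a sex term, 2 with quantile normalization, 35 with a mean of at least 50, 29 without nPAB mice 6 and 7, 158 with edgeR and 251 with DESeq2. Leaving out 1 mouse gave 0 to 20 there, with 11 without nPAB mouse 6 and 20 without nPAB mouse 7. Of the members, edgeR and DESeq2 called 1 there, Fgf1, against 0 with limma. Without the replicate block, the unpaired fit called 5 genes and 0 members. The causes of these shifts were not tested. In the LV, Fgf6 had a mean under 10 without nPAB mice 6 and 7 and was not tested there. Fgf10 was limited by its few reads, at most 12 in a library.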
